A study of Mus musculus with 11 samples.

Results

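The Cux1 acetylated cluster is a stretch of mouse chromosome 5 in which peaks of acetylated lysine 27 of histone H3 (H3K27ac) lie side by side over nearly 200 kb of thymocyte chromatin. Its members are all peaks that 6 deposited lists hold on chromosome 5 between 136.7 and 137.07 Mb (build mm9), a window of 370001 bp. They number 150 of 120616 peaks in the series, 111 of H3K27ac and 39 of Smc1a. The window was chosen by its H3K27ac peak coverage, because its cluster had the greatest summed length of acetylated regions in wild type and lower coverage in both knockout lists. The difference in coverage between genotypes is therefore a description of how the window was picked, and no test is given for it.

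The study concerned cohesin, the ring-shaped complex that holds chromatin loops, and the clustering of enhancers. H3K27ac was mapped by chromatin immunoprecipitation and sequencing (ChIP-seq) in 2 Rad21 -/- libraries (KO) and 2 wild-type libraries (WT). Smc1a, a core subunit of cohesin, was mapped in 2 WT libraries and not in KO. All cells were sorted CD4+ CD8+ double-positive thymocytes of mice aged 6 weeks. The KO mice carried floxed Rad21 and a Cre transgene driven by Cd4, so that Rad21, the subunit that closes the ring, is deleted from this stage onwards, and the controls were littermates. The labels do not name the mouse behind each library, so the spread between the 2 libraries of a genotype may be technical. Peak lists hold no reads, so the loss of Rad21 and the identity of the sorted cells were not checked here, and a missing peak is a missing call. In sorted cells measured in bulk, loss of the mark from some cells and a lower level in all cells cannot be told apart.

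Cux1 encodes a homeodomain protein with CUT repeats that binds DNA and is known above all as a repressor of transcription. The gene is long and is expressed in many tissues, thymocytes among them. H3K27ac marks active promoters and enhancers, and long runs of it are often called super-enhancers. Cohesin is loaded onto chromatin at many places and halts at sites bound by CTCF, and it is also found at active promoters and enhancers.

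In the RefSeq annotation, which uses a later build (GRCm38.p6), Cux1 lies on the minus strand, contains the microRNA gene Mir721 and the non-coding RNA gene Gm16599, and has Sh2b2 and Myl10 as its protein-coding neighbours. The 300 bases around its annotated start are shown because H3K27ac is a promoter mark, with each CG in capitals, from 250 bases before to 50 after the start.
Cux1 promoter: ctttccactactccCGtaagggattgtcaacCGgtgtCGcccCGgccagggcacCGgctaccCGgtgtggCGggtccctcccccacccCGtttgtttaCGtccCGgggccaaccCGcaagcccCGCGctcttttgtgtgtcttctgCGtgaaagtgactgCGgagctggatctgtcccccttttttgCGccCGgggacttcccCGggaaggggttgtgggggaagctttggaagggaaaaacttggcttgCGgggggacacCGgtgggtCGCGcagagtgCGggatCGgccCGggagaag
It holds 25 CG pairs, against a median of 7 over 32851 RefSeq promoters of this length, and 18.4% of them hold at least as many. Its content of G and C is 65.0%, against a median of 52.7%. On either strand it holds 1 copy of CCCTC, which 66.0% of promoters hold, and no TGTGGT or CANNTG, which 16.8% and 72.3% of promoters hold. No genome of build mm9 was used here, so this sequence was not placed in the window and no sequence of the peaks is given.

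The H3K27ac lists of KO held 24 and 23 peaks in the window (replicates 1 and 2), and those of WT held 31 and 33. KO peaks covered 114064 and 84422 bp, and WT peaks covered 172502 and 169375 bp. The mean was 99243 ± 20960 bp in KO and 170938 ± 2211 bp in WT (SD, n = 2 each), so KO coverage was 58.1% of that in WT and KO minus WT was -71695.5 bp. KO replicate 2 was the lower of the KO libraries, and the WT libraries lay close together. Per Mb covered in the whole list, the window took 2166 and 1774 bp in KO and 3065 and 3715 bp in WT. The nearest H3K27ac peaks outside the window lay 24318 and 24357 bp (KO) and 23944 and 49320 bp (WT) to its left, and 22538 and 22782 bp (KO) and 4377 and 21762 bp (WT) to its right. Peak coverage of the whole lists was 52.7 and 47.6 Mb in KO and 56.3 and 45.6 Mb in WT.

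**Figure D1:**
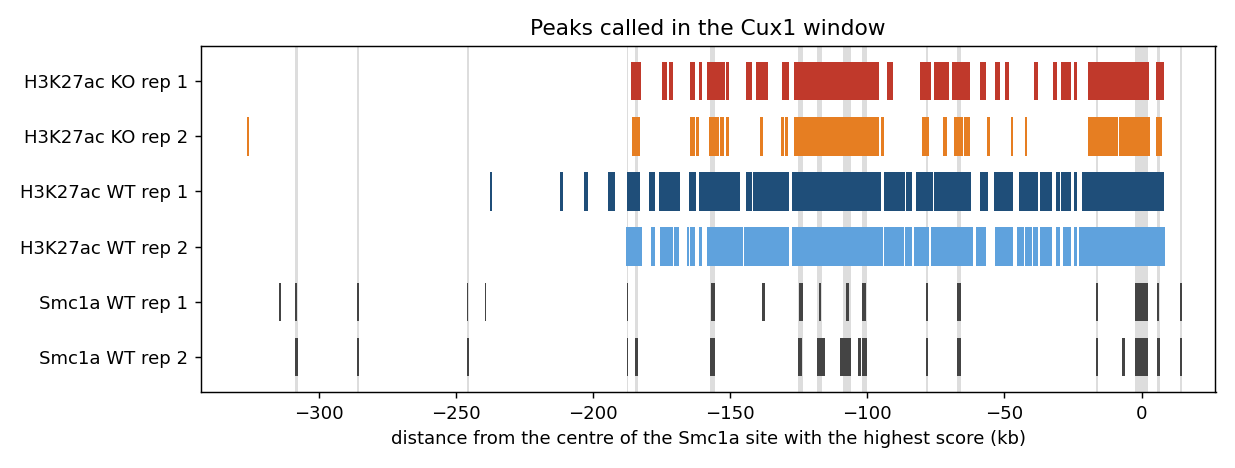
Peaks of the 6 lists along the Cux1 window, with the horizontal axis in kb from the centre of the Smc1a site with the highest score and 1 row per library. Bars are peaks and grey bands the 16 Smc1a sites called in both replicates. WT rows are nearly continuous over the right side of the window, while KO rows are broken into pieces, with 2 long stretches left in each of them.

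What was left in KO lay inside what was acetylated in WT. Of the KO covered bases, 99.1% (replicate 1) and 96.6% (replicate 2) lay under a peak of at least 1 WT library. No base was covered by both KO libraries and by neither WT library, while KO replicate 1 covered 1059 bp and KO replicate 2 covered 2902 bp outside all WT peaks. Over the genome 1973197 bp were covered by both KO libraries and by neither WT library. The libraries of KO shared 0.646 of the bases covered by either of them (Jaccard index) and those of WT 0.860. Between genotypes this index was 0.646 and 0.644 for KO replicate 1 with WT replicates 1 and 2, and 0.457 and 0.467 for KO replicate 2 with the same libraries. The window was picked for long WT and lower KO coverage, which leaves KO peaks little room outside WT peaks. The shares inside WT peaks and the index were not set against the genome.

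Bases covered by both WT libraries are called the core here. The core of the window measured 158091 bp, and KO covered 69.9% (replicate 1) and 50.5% (replicate 2) of it. Both KO libraries covered 77770 bp (49.2%), KO replicate 1 alone 32680 bp (20.7%), KO replicate 2 alone 2133 bp (1.35%), and neither 45508 bp (28.8%). The pieces kept in KO replicate 2 were thus nearly a subset of those in KO replicate 1, which held 97.3% of them. Over the core of the whole genome (40.9 Mb), KO covered 92.2% and 84.7%, both libraries together 82.7% and neither 5.86%.

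Merging the peaks of the 4 H3K27ac libraries gave 26 regions in the window, 19 of them with a peak of both WT libraries. Of these 19, 10 had a peak in both KO libraries, 6 in 1 KO library and 3 in neither. Over the genome, 88.9% of such regions were called in both KO libraries, 6.94% in 1 and 4.17% in neither. All 6 regions with 1 KO library were called in KO replicate 1 and missing from KO replicate 2. No region was called in both KO libraries alone, a class that makes up 2.82% of all merged regions. The other 7 regions came from a single list each, 2 from KO replicate 2, 4 from WT replicate 1 and 1 from WT replicate 2. These shares describe the picked window and are no evidence about it.

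The longest merged region ran from 136915525 to 136956641 (41117 bp), and its main peak was of similar width in all 4 libraries. That peak was 31041 and 30733 bp wide in KO and 32135 and 33401 bp wide in WT. It ran from 136916256 to 136947296 and from 136916451 to 136947183 in KO, and from 136915731 to 136947865 and from 136915525 to 136948925 in WT. Its score, the peak caller's own value, was 1660.42 and 3100 in KO and 3100 and 983.19 in WT, where 3100 is a value shared by many peaks of these lists, and scores are not compared between lists. To the right of this peak the region was covered by KO replicate 1 over a peak of 2050 bp (score 122.56) and by KO replicate 2 over 871 bp (score 50.73), while WT peaks reached 136956641 and 136956574 (replicates 1 and 2).

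The other stretch that persisted lay in the second longest region, from 137020265 to 137051427 (31163 bp). KO libraries covered 24900 and 24594 bp of it and WT libraries 29525 and 30862 bp. KO replicate 1 held 1 peak of 22035 bp there and WT replicate 1 held 1 of 21930 bp, with starts 30 bp apart and ends 75 bp apart. In KO replicate 2 and WT replicate 2 the same bases were divided into 2 peaks, of which the right one had a score of 3100 in both lists. Together, both long regions held 68915 bp of the core, of which 79.1% stayed covered in both KO libraries. They made up 70.1% of all core bases kept in both KO libraries, while 26.1% of the 89176 bp of core elsewhere was kept.

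The next 3 regions in length were called in all 4 libraries and were covered over fewer bases in KO. From 136959911 to 136981669 (21759 bp), KO covered 15857 and 9457 bp and WT 19624 and 20837 bp. From 136898223 to 136914608 (16386 bp), KO covered 8995 and 3362 bp and WT 15522 and 16386 bp, so that a region that was a single peak in WT replicate 2 was 3 short peaks in either KO library. From 136884335 to 136897849 (13515 bp), KO covered 7721 and 6010 bp and WT 12210 and 13298 bp. In each of these regions both KO values lay below both WT values, and KO replicate 2 lay lowest.

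The 3 regions without any KO peak were short and held no Smc1a site. In the region from 136863354 to 136865797, WT peaks took up 2444 and 1364 bp, with scores of 135.46 and 60.52. In the region from 136956728 to 136959449 they took up 2397 and 2565 bp, with scores of 182.46 and 157.69. The region from 137005869 to 137010412 was covered nearly whole in both WT libraries, with scores of 297.12 and 241.47. They lay 3966, 4859 and 16013 bp from the nearest Smc1a site. The number of such regions depends on which lists are used, since it was 9 without KO replicate 1, 9 without WT replicate 1 and 8 without WT replicate 2. Leaving out a list asks fewer lists to agree, so this number could not fall.

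**Figure D2:**
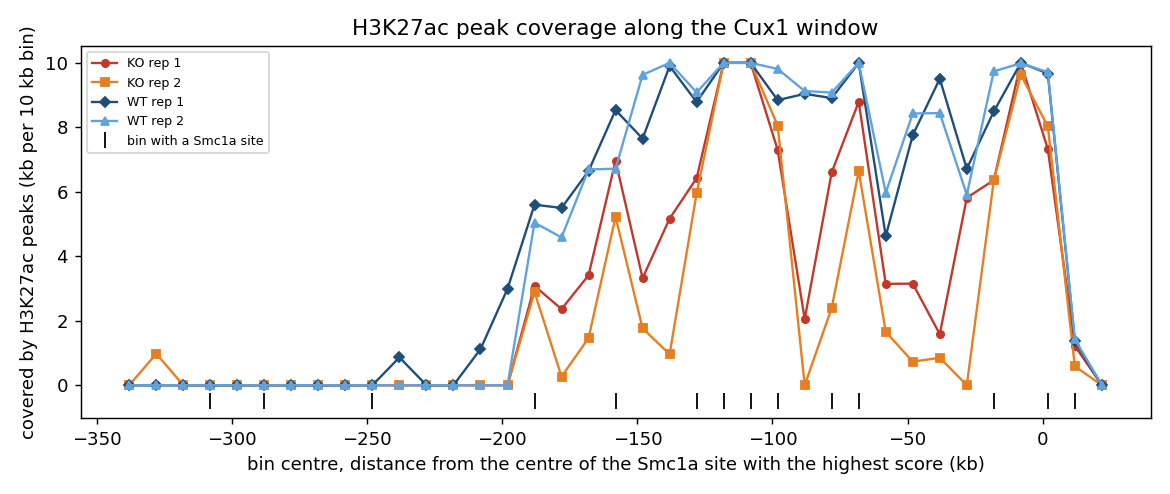
Bases covered by H3K27ac peaks in successive bins of 10 kb along the window (vertical axis, kb per bin), against the bin centre in kb from the Smc1a site with the highest score, 1 line per library and a tick for each bin with a Smc1a site. KO lines meet the WT lines in the bins at -118 and -108 kb and come close in the bin at -8.07 kb (10000 and 9628 bp in KO, 10000 and 9989 bp in WT), and between them KO replicate 2 drops to 0 in 2 bins that each WT library covers over at least 5910 bp.

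In bins of 10 kb, 25 bins of the window had a peak, and both KO libraries lay below both WT libraries in 17 of them (68.0%), with the reverse in 0. Over the genome this was so in 16.4% of 24659 bins with a peak and the reverse in 18.4%. The window was picked for lower KO coverage, so its share is part of the pick. In 4 bins of the core, starting at 136950000, 136990000, 137000000 and 137010000, no core base was covered by both KO libraries. There KO libraries covered 2050 and 0 bp, 3151 and 729 bp, 1584 and 852 bp, and 5815 and 0 bp, and WT libraries 9039 and 9126 bp, 7758 and 8429 bp, 9506 and 8442 bp, and 6713 and 5910 bp. None of these 4 bins held a Smc1a site. The other core bins without a site kept between 6.40% and 96.4% of their core in both KO libraries. No share of bins without a site over the genome is given.

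Smc1a was not used to choose the window. Its lists held 19 peaks (replicate 1) and 20 peaks (replicate 2) there, and these formed 16 reproducible sites, which are merged regions with a peak of both replicates. Of the 16 sites, 12 overlapped the core, and the other 4 had no H3K27ac peak in any of the 4 libraries. Over the genome 3170 of 14848 sites (21.3%) overlapped the core. The window was picked for its length of WT acetylation, so the pick itself favours a larger share here. The site with the highest score ran from 137040759 to 137045380 (4622 bp), at the right end of the second long stretch. Its score was 2147.6 in Smc1a replicate 1, rank 28 of 25484 peaks, and 384.99 in replicate 2, rank 1906 of 17726. The 4 sites under the longest acetylated peak ran from 136917958 to 136919452, 136924750 to 136926470, 136934106 to 136937006 and 136941074 to 136942776, with scores between 147.75 and 485.81 in replicate 1 and between 232.07 and 350.96 in replicate 2. The 4 sites without acetylation ran from 136734464 to 136735406, 136757010 to 136757829, 136796936 to 136797721 and 137056940 to 137057704. Their scores ran between 176.83 and 376.58 in replicate 1 and between 67.35 and 135.34 in replicate 2. In replicate 2, those from 137056940 and 136734464 were among the 3 weakest of the 16 sites. In replicate 1 the same sites had scores of 211.32 and 339.45, at percentiles 60.8 and 74.8 of that list, so the replicates differed on them.

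The parts that persisted in KO lay mostly at and around the Smc1a sites of WT. All 12 sites that overlapped the core were covered by a peak of both WT libraries, and 11 of them were covered over their whole length by both KO libraries, as were 73.1% of the 3170 sites on the core of the genome. The exception was the site from 136855360 to 136855840 (scores 87.78 and 56.02), where both KO libraries had no peak. The site from 136964308 to 136965257 had a lower score in replicate 1 and a higher one in replicate 2 (63.35 and 103.87). It was covered whole in both KO libraries. Of the 19783 core bases inside Smc1a sites, 97.7% stayed covered in each KO library, against 95.9% (replicate 1) and 92.5% (replicate 2) of such bases over the genome, so the window stood close to the genome inside the sites. All 12 sites fell in 5 regions, and those 5 were among the 10 regions called in all 4 libraries. None of the 9 WT regions missing from 1 or both KO lists held a site. Those regions were shorter, with median lengths of 3259.5 bp (missing from 1 KO list) and 2722 bp (missing from both). The median was 10643 bp for regions called in all 4 libraries. Longer regions have more room for a site, and these counts were neither matched on length nor set against a share over the genome.

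The share of core covered in KO was lower at greater distance from a site. Up to 2.5 kb outside a site, KO covered 86.7% and 78.2% of the core (replicates 1 and 2), and between 2.5 and 5 kb it covered 82.2% and 61.6%. Between 5 and 10 kb the shares were 45.6% and 19.8%, and between 10 and 20 kb 49.1% and 5.78%. Beyond 20 kb, where the core measured 6622 bp, they were 23.7% and 10.7%. The order was the same in both KO libraries up to 10 kb, and KO replicate 2 was lower at each distance outside the sites.

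Taking 5000 bp as the limit, both KO libraries covered 77.5% of 91740 core bases near a site and 10.1% of 66351 core bases farther away, a difference of 67.4 percentage points. The difference was 42.9 points in KO replicate 1 and 65.2 points in KO replicate 2 taken alone. Over the genome the same shares were 82.4% near a site and 83.0% farther away, a difference of -0.621 points. Coverage in KO is the contrast on which the window was picked, and neighbouring bases share a peak, so these shares carry no test. WT peaks that held a site had higher median scores and were wider. In WT replicate 1 the 7 peaks with a site had a median score of 1413, against 201 for the 24 without one. In WT replicate 2 the medians were 568 (8 peaks) and 95.7 (25 peaks). Median widths with and without a site were 6756 and 2762 bp in WT replicate 1 and 12129 and 2291 bp in WT replicate 2. A wide peak has more room for a site, and a score per peak does not give the level at the site. Inside the 16 highest-scoring peaks of WT replicate 1, both KO libraries kept 80.3% of the core near a site and 11.0% of the core farther away. Inside its 15 lowest-scoring peaks they kept 0 of 3210 near bases and 7.87% of 20266 farther ones. The part of peak score or width in the result was not tested beyond these values.

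**Figure D3:**
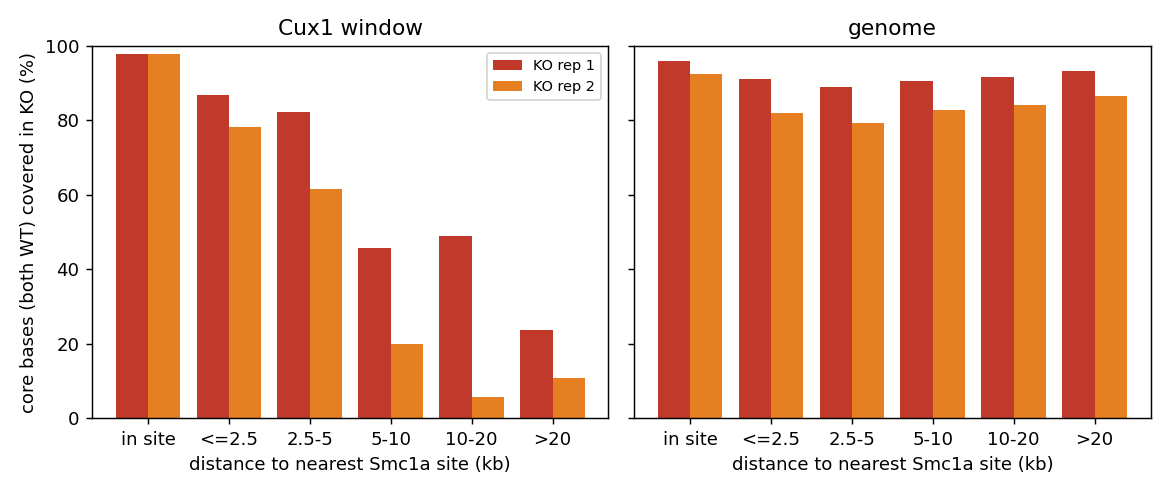
Share of core bases (covered in both WT libraries) that is covered in KO replicate 1 and KO replicate 2, by distance to the nearest Smc1a site in kb, in the Cux1 window (left) and over the genome (right). In the window the shares drop from 97.7% inside the sites to 45.6% and 19.8% at 5 to 10 kb, while over the genome they stay between 79.4% and 95.9%.

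The intervals between neighbouring sites showed the same picture. Between the 4 sites of the longest peak the sites were 4067 to 7635 bp apart, and all core bases of these 3 intervals were covered in both KO libraries. Between 137027209 and 137040758, an interval of 13550 bp that ends at the strongest site, both KO libraries covered 97.3% of the core. The longest acetylated interval ran over 49247 bp from 136977178 to 137026424. KO libraries covered 19300 and 8448 bp of it and WT libraries 36342 and 37733 bp, and 16.8% of its 33303 core bases were kept in both KO libraries. In the intervals of 30442 bp (from 136887516), 26459 bp (from 136859389) and 21531 bp (from 136942777), both KO libraries kept 31.5%, 22.1% and 31.9% of the core. Length did not order all intervals, since in the short one of 3320 bp just right of the strongest site 19.6% of 2898 core bases were kept.

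Around most sites fewer bases were acetylated in KO than in WT. Within 5000 bp of the site, both KO libraries were covered over fewer bases than both WT libraries at 10 of the 12 sites, and at the other 2 all 4 libraries were covered completely. Some neighbouring sites lie as close as 2581 bp, so their flanks share bases and the 12 sites are not separate counts. Over the genome both KO libraries lay below both WT libraries at 39.4% of 3170 sites, and the window was picked for this direction. At the site from 136885848 to 136887515, KO covered 75.2% and 57.1% of the site and its flanks and WT 90.8% and 77.3%. At the site from 136975642 to 136977177, KO covered 74.7% and 59.9% and WT 87.3% and 95.6%. At the site from 136964308 to 136965257, KO covered 62.7% and 21.9% and WT 85.0% and 86.1%. The peak over this last site measured 3850 and 2397 bp in KO and 6188 and 3211 bp in WT. At the strongest site the coverage was 81.7% and 86.5% in KO and 97.7% and 98.0% in WT, although the peak over the site itself was no narrower in KO (22035 and 11262 bp) than in WT (21930 and 10960 bp). The site from 137026425 to 137027208, at the left end of the same stretch, had 79.5% and 79.4% in KO and 97.9% and 100% in WT. Coverage was lower in all libraries at the outer sites, from 136858422 to 136859388 (33.7% and 28.8% in KO, 54.4% and 53.8% in WT) and from 137048701 to 137049687 (44.1% and 44.7% in KO, 66.7% and 67.7% in WT).

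**Figure D4:**
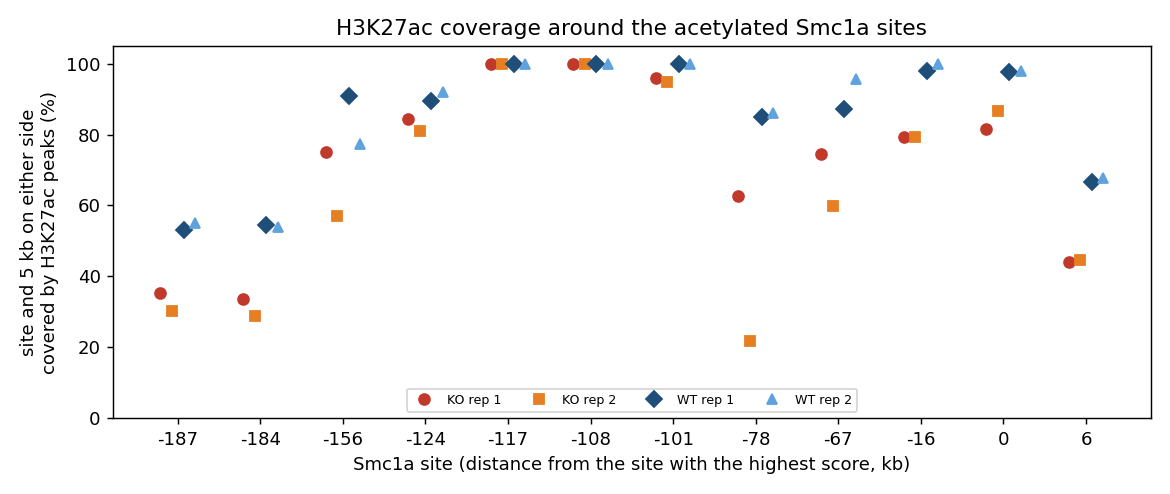
Share of each acetylated Smc1a site and 5 kb on either side of it that is covered by H3K27ac peaks (vertical axis, %), for the 12 sites in order along the window, labelled by distance in kb from the strongest site. Each symbol is 1 library. KO symbols lie below WT symbols at 10 sites and all symbols lie at 100% at the sites at -117 and -108 kb.

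The pattern was also read from unbroken runs of bases. The core bases kept in both KO libraries formed 17 runs, of which 13 were at least 1000 bp long and 8 of those 13 held a Smc1a site. The core bases lost in both formed 43 runs, of which 19 were at least 1000 bp long and 1 of those held a site. Over the genome 19.3% of kept and 13.7% of lost runs of this length held a site. Longer runs have more room for a site, and these counts were not matched on length. The longest kept run measured 30733 bp and the longest lost run 4739 bp, from 136906745 to 136911483, at 6475 bp from the nearest site. Not every kept run had a site, since one of 1938 bp from 136978479 and one of 1595 bp from 136878538 lay 1302 and 5716 bp from the nearest.

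The window was set beside the WT clusters that came next in summed length. WT clusters are groups of at least 3 regions of both WT libraries that lie within 12.5 kb of each other, and the genome held 1060. The Cux1 cluster spanned 136854959 to 137051427, with a summed length of 176560 bp. The next were on chromosome 5 from 66213444 to 66350112 (118118 bp) and on chromosome 17 from 52269946 to 52461057 (114456 bp). KO coverage was 58.8% of WT coverage in the Cux1 cluster, 86.1% in the second and 75.7% in the third. The median was 88.2% over all clusters and 79.1% over the 10 longest. Both KO libraries kept 49.2%, 83.1% and 76.5% of the core in these 3 clusters. The median share kept was 82.8% over all clusters and 73.6% over the 10 longest. The cluster ranked 8 by length came close to the Cux1 cluster, with KO at 60.4% of WT coverage and 56.0% of the core kept. Counted from the lowest share kept, the Cux1 cluster ranked 40 of 1060. Both KO libraries lay below both WT libraries in 49.1% of the 1060 clusters, which were built on WT, and above both in 7.45%.

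The placement of the kept parts relative to Smc1a also varied among clusters. Every core base of the second cluster lay within 5000 bp of a Smc1a site, and it held 30 sites, against 12 in the Cux1 cluster. In the third cluster, with 18 sites, both KO libraries kept 84.3% of the core near a site and 50.5% farther away, a difference of 33.8 points. In the clusters ranked 4 to 10 by length the difference was 59.8, 3.54, -3.28, -0.407, 11.8, 25.2 and 55.2 points, in that order. Of 259 clusters with at least 5000 bp of core on either side of the limit, the difference was above 0 in 160 (61.8%), with a median of 5.35 points and a middle 50% from -8.42 to 19.6. The Cux1 cluster, at 67.4 points, ranked 6 of 259. It was picked for its lower KO coverage, and a cluster that keeps most of its core has little room for a difference. The rank is therefore partly set by the pick and carries no test. Per 100 kb of core it held 7.59 Smc1a sites, against a median of 9.41 over all clusters and 13.8 over the 10 longest.

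**Figure D5:**
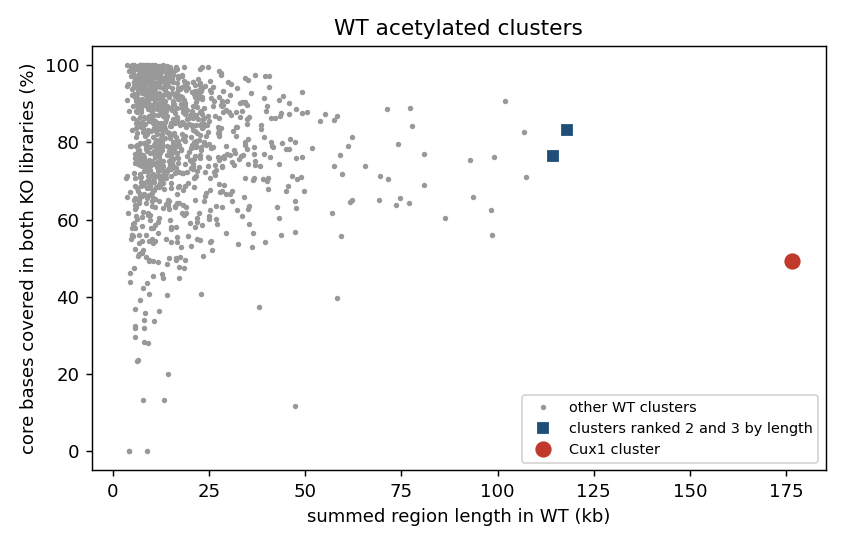
Share of core bases covered in both KO libraries (vertical axis, %) against summed region length in WT (kb) for the 1060 WT clusters, 1 point each. The Cux1 cluster lies farthest right at 177 kb and 49.2%, below the clusters ranked 2 and 3 by length at 83.1% and 76.5%.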

How the data were processed

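Per the submitters' processing notes, alignment used Bowtie 0.12.8 and build mm9, and the deposited lists name their peaks after MACS, 1 library per list. The version, settings and control libraries of the caller are unknown here, and the 5 input libraries were not analysed here. The authors' score per peak starts at 50 in every list and was used to describe, rank or filter peaks within a list. Depth is unknown, so no interval on counts is given. Peaks were handled as intervals with Python 3.11.15, numpy 2.4.6 and pandas 2.3.3. The interval functions matched a second calculation in 200 of 200 simulated sets of random intervals. Overlap means at least 1 bp, and overlapping or touching peaks were merged. The window and the lists were chosen with earlier results of these data known, so values are described without a test. Named in full were the 5 longest regions, regions called in both libraries of 1 genotype and in neither of the other, the reproducible Smc1a sites and the WT clusters ranked 2 and 3 by summed length. No gene annotation of mm9 was used, so marker loci and related genes were not examined. The alternatives were stricter scores, equal numbers of peaks, joined peaks, the cluster alone, other distances and overlaps, scaling, the replicate block and each library left out.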

Additional observations from a re-analysis of the deposited data

How the results depend on the processing

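Of 60 alternatives over 6 results, 47 stayed within the spread between replicates or within 1.5 times a count. Lower coverage in KO held in each of the 10 run on it, but the window was picked for this direction. Some alternatives could not differ from the main result. The cluster alone holds the whole core, and the replicate block gives the same mean coverage difference by arithmetic. The count of 47 is therefore no measure of support. With each library left out in turn, KO minus WT coverage ran from -86516.5 to -56874.5 bp, the share of core kept from 45.1% to 69.9%, the difference near minus far from 42.9 to 72.5 points, the regions without a KO peak from 3 to 9, the bases gained in KO from 0 to 2902 and the Smc1a sites from 19 to 20. The upper values of the share kept and the lowest of the near minus far difference came without KO replicate 2. Leaving out a list also loosens the definitions. The regions without a KO peak and the bases gained could not fall, nor could the share kept without 1 KO list. Without 1 Smc1a list, every peak of the other list counted as a site, against 16 reproducible sites with both lists. The WT regions without a KO peak numbered 5 with the upper 75% of each list by score, 1 with peaks joined within 1000 bp, 7 with equal numbers of peaks and 6 with an overlap of at least 50%. Alternatives chosen after seeing the data left out the 2 regions with at least 3 Smc1a sites, which gave 26.1% of the core kept and 51.8 points, or took the WT peaks of the window by score. The difference was -7.87 points in the lowest-scoring peaks of WT replicate 1, where 3210 core bases lay near a site, 36.5 points in those of WT replicate 2, and 69.3 and 73.8 points in the highest-scoring ones. The cause was not tested. With the replicate block, which pairs libraries by number only and carries no test, the mean coverage difference was -71695.5 bp and the share kept 56.5%. The number of libraries, 2 per genotype, limits every comparison.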
